A study of Mus musculus with 1920 samples.

Results

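The genes described here are the galectins Lgals1, Lgals3, Lgals8 and Lgals9 together with Lgals3bp, which encodes a secreted glycoprotein that binds galectins. They are 5 of the 48709 gene entries in a table of read counts from single mouse microglia, which are macrophages that live in brain and spinal cord tissue. The 5 members were chosen by their names and with earlier results on these same counts in view, so their levels and their changes between groups are given as a description. No p-value is printed for a member, and which members passed a threshold is a description too. Over all kept cells Lgals9 had 230034 reads, Lgals3bp 101424, Lgals3 79443, Lgals1 76483 and Lgals8 50573. The next galectin gene in the table, Lgals4, had 4144 reads and was not chosen, and Lgalsl, Lgals12, Lgals2, Grifin and Lgals7 had 1486 or fewer.

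Cells came from CD1 mice aged 16 weeks, 4 mice in each of 10 groups, and no genetic alteration is named in the labels for any group. Untreated mice gave 6 groups, from spinal cord, corpus callosum, facial nucleus, cortex, cerebellum and hippocampus. After facial nerve axotomy, in which the nerve that leaves the facial nucleus is cut, cells were taken at day 3 and at day 14. After treatment with cuprizone, a copper chelator that kills myelin-forming cells, cells were taken from corpus callosum at a demyelination stage and at a remyelination stage. The dose and length of that treatment are not used here. Axotomy cells carry a tissue label of facial nerve and a source label of facial nucleus, and are compared with untreated facial nucleus. Each plate held 2 groups, so day 14 against day 3 and remyelination against demyelination lie within a plate, whereas every injured group and its untreated region were on different plates, and plate and treatment cannot be told apart in those comparisons. The series' design text says that regions of untreated animals came from the same mice, and speaks of 3 to 4 mice per condition where the labels number 4.

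Of 1900 wells labelled as cells, 1644 passed the filters, between 129 (remyelination) and 181 (cerebellum) in a group. Counts were summed per mouse and group, which gave 40 sums of 5298853 to 19964472 counts. All 12 microglia markers were read in every group, and their summed level was 45695 to 64335 CPM in the untreated regions, 44215 and 41341 after axotomy, 35121 in demyelination and 34163 in remyelination. CPM here is the read count of a gene scaled to the total of its library, with TMM scaling, a correction for RNA composition, over all 10 groups. TMM raised demyelination by 0.51 and remyelination by 0.53 on the log2 scale relative to library totals alone, and moved the other groups by -0.23 to -0.01. Remyelination stood apart in quality: 67.9% of its wells were kept, and its cells had a median of 1517 detected genes against 2137 to 2958.5 in the other groups.

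Galectins are lectins that bind galactose-containing sugar chains on proteins and lipids. They have no signal peptide, are made in the cytosol and leave the cell by a route outside the classical secretory pathway, and inside the cell some of them mark broken lysosomes by binding the sugars that become exposed there. Lgals1 encodes a prototype galectin that forms homodimers, Lgals3 a chimera-type galectin whose tail lets it oligomerise, and Lgals8 and Lgals9 tandem-repeat galectins with linked sugar-binding domains. Lgals3 is known as a gene of activated and phagocytic microglia, in which its product can bind the receptor Trem2, and Lgals9 is known as a gene induced by interferons.

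The sequences before the start sites of a pair of genes that differ in how their levels behaved are shown first, since Lgals3 was near absent outside the cuprizone groups and Lgals9 was read in every group. RefSeq promoter sequences of GRCm38.p6 were matched by symbol for 4 of the 5 members, Lgals3, Lgals3bp, Lgals8 and Lgals9, and the 250 bases before each RefSeq start site were searched. The Lgals8 window (chr13:12461739-12461988, minus strand) lies inside the gene as counted, whose span reaches further upstream, to 12464944. Its letters therefore do not describe the bases before the start of that span. GENCODE starts some transcripts elsewhere, so that 47 bases of the Lgals3 window, 133 of the Lgals3bp window and 22 of the Lgals9 window lie in a GENCODE exon, and the Lgals3 window also lies within a longer GENCODE transcript that starts upstream. The bases outside those exons are printed 5′ to 3′ on the strand of the gene, for Lgals3 at chr14:47373610-47373812 (plus strand) and for Lgals9 at chr11:78984947-78985174 (minus strand). Capitals mark matches to AANNGAAA, the core letters bound by interferon regulatory factors.
Lgals3: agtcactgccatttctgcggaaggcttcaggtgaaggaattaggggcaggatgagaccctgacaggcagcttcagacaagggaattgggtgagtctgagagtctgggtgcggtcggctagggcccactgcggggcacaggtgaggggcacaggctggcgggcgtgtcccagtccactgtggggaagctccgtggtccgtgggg
Lgals9: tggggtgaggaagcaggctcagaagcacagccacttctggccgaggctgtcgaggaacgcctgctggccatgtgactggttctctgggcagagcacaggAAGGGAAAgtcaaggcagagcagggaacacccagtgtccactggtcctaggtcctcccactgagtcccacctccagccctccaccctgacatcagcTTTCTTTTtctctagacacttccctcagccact
The Lgals9 window held 2 such matches, which began 151 bases (strand as printed) and 55 bases (opposite strand) before the start site. The Lgals3bp window held 1, which began 14 bases before the RefSeq start site on the strand of the gene and lies in a GENCODE exon. Neither the Lgals3 nor the Lgals8 window held one. These letters occur in 21.3% of all 32851 RefSeq promoter windows of this length, so a match is a description of the letters only. No match was found in any of the 4 windows to TGANTCA (the AP-1 site, in 6.75% of windows), CACGTG (the E-box, 6.02%) or AGGAAGT (a PU.1 core, 7.69%), searched on both strands. The Lgals3 window held 13 CG pairs and was 66% G or C, against 2 and 3 CG pairs in the Lgals3bp and Lgals9 windows and a median of 6 over all windows. The motifs were settled with these sequences in view.

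**Figure D1:**
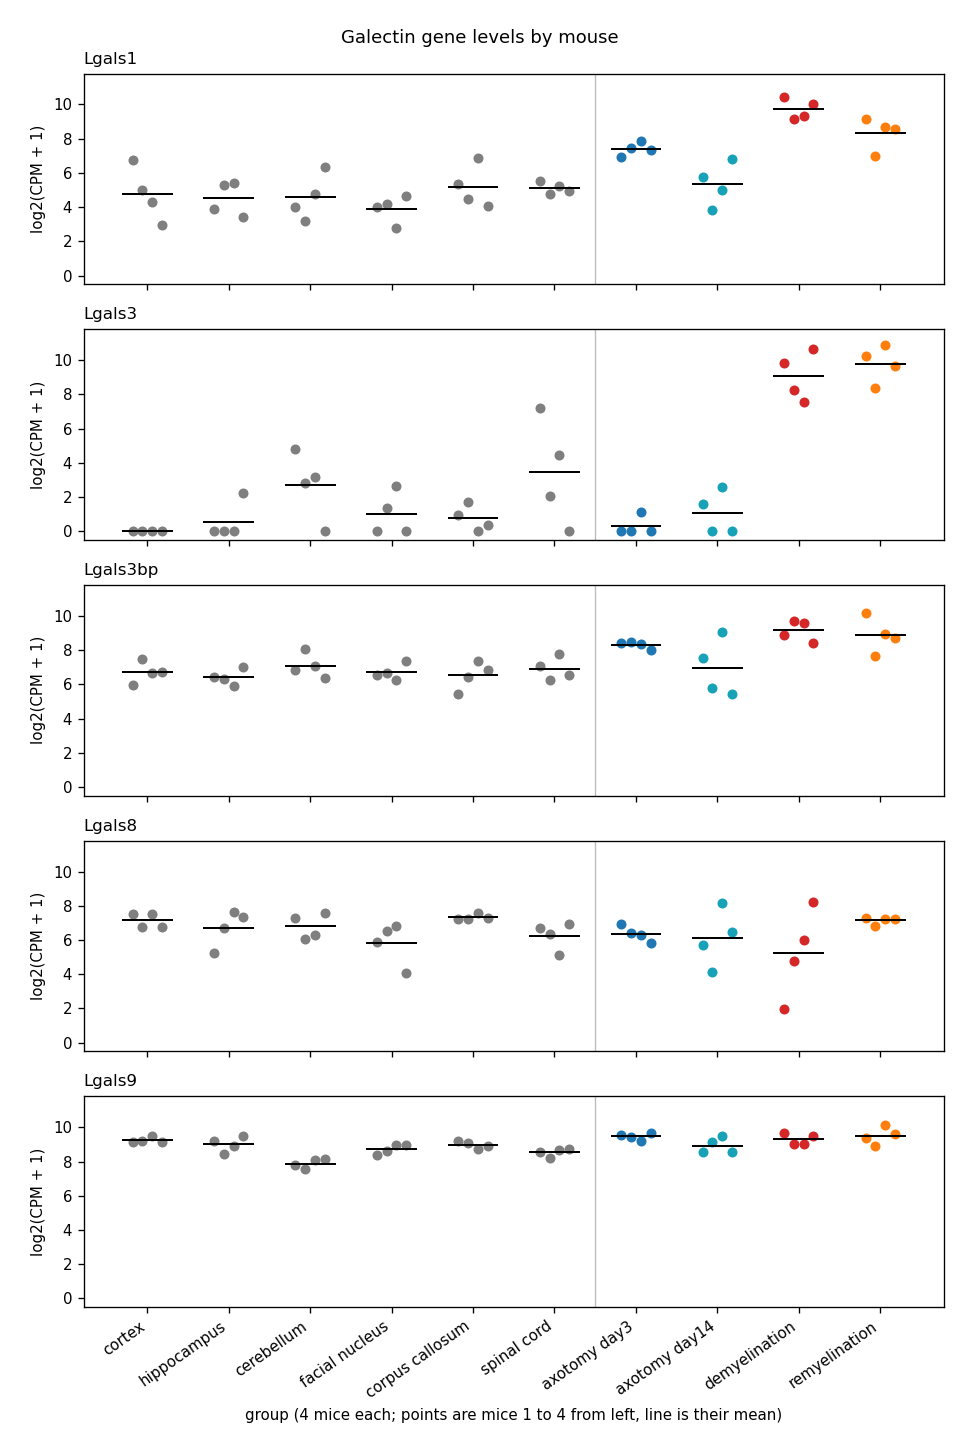
Level of each gene in each group on a log2(CPM + 1) scale, 1 point per mouse (mice 1 to 4 from left) and a line at the mean of the 4 logged values. Lgals3 lies between 186 and 1877 CPM in the 8 cuprizone mice and at 148 CPM or lower in the other 32, whereas Lgals9 lies at 186 CPM or higher in all 40.

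Lgals3 (ENSMUSG00000050335, chromosome 14, 47367751 to 47386160, plus strand) was high in both cuprizone groups and low or unread in the other 8. In demyelination the 4 mice had 919, 306, 186 and 1614 CPM (756 ± 656, SD, n = 4), and in remyelination 1215, 331, 1877 and 807 CPM (1057 ± 655). Untreated corpus callosum had 0.952, 2.31, 0 and 0.306 CPM (0.893 ± 1.03), which rests on 35 reads in 4 cells. Every cuprizone mouse lay above every untreated corpus callosum mouse, while the 2 cuprizone stages overlapped. The log2 fold change against corpus callosum was 9.69 ± 1.11 (SE) in demyelination and 10.20 ± 1.13 in remyelination, and that between the stages was 0.51 ± 0.75. With equal weight for each cell the values against corpus callosum were 7.54 and 8.14, and with no TMM scaling 9.08 and 9.49. Without demyelination mouse 4 the demyelination value was 9.01, and without corpus callosum mouse 2, the highest of that group, the values were 10.74 and 11.25. Without demyelination mouse 4 the value between the stages was 1.2.

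Outside cuprizone Lgals3 reads came from few cells. Cortex had no Lgals3 read in any of 176 cells, which allows a share of cells of up to 1.70% and a level of up to 0.0564 CPM (3 counts over the group, counting error only). Hippocampus had 1 cell with a read, axotomy day 3 had 1, facial nucleus 3, corpus callosum, cerebellum and spinal cord 4 each, and axotomy day 14 had 5. In spinal cord the 4 mice had 148, 3.24, 21 and 0 CPM, and 1 cell of mouse 1 carried 1464 of the group's 1726 reads. In cerebellum, at 26.6, 6.11, 8.05 and 0 CPM, 1 cell carried 65.4% of the reads. Axotomy day 3 had 11 reads in all and facial nucleus 69, too few for a fold to be read from them.

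In the cuprizone groups Lgals3 was spread over many cells but not all. With each cell thinned to 20000 reads, 42.6% ± 14.9 (SD, n = 4 mice) of demyelination cells and 38.2% ± 18.8 of remyelination cells had a read, against 0% to 2.3% in the other 8 groups. By mouse the shares were 52.8%, 30.4%, 29.3% and 57.9% in demyelination and 37.9%, 15.2%, 61.1% and 38.7% in remyelination. The mice with the highest shares also had the highest levels in each stage. Without thinning the shares were 61.9% and 53.8%. The cell with most Lgals3 reads held 17.1% to 43.9% of a demyelination mouse's reads and 15.1% to 67.4% of a remyelination mouse's. Among 20 wells labelled negative, 2 had a single Lgals3 read.

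Lgals1 (ENSMUSG00000068220, chromosome 15, 78926725 to 78930465, plus strand) was higher both 3 days after axotomy and in the cuprizone groups than in the untreated region. Facial nucleus mice had 15.1, 17.2, 5.97 and 24.1 CPM (15.6 ± 7.49, SD, n = 4), day 3 mice 123, 178, 229 and 158 CPM (172 ± 44.2), and day 14 mice 54.2, 13.5, 31.6 and 113 CPM (53.0 ± 43.2). Day 3 lay above both other groups without overlap, and day 14 overlapped with facial nucleus. The log2 fold change against facial nucleus was 3.47 ± 0.62 (SE) at day 3 and 1.77 ± 0.58 at day 14, and day 14 against day 3 was -1.70 ± 0.58. Without day 14 mouse 4 the last 2 values were 1.09 and -2.34.

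In corpus callosum Lgals1 stood at 39.6, 21, 114 and 15.8 CPM in untreated mice (47.6 ± 45.4), at 1398, 572, 627 and 1048 in demyelination (911 ± 388) and at 557, 126, 413 and 380 in remyelination (369 ± 179). With TMM scaling the 3 groups did not overlap, but the gaps were small. Demyelination mouse 2 at 572 lay close to remyelination mouse 1 at 557. Remyelination mouse 2 lay close to the highest untreated mouse, and below it on library totals alone, so that separation depends on the scaling. The log2 fold change was 4.25 ± 0.62 in demyelination, 2.98 ± 0.58 in remyelination and -1.27 ± 0.55 between the stages. Without corpus callosum mouse 3, the highest untreated mouse, the values against corpus callosum were 5.13 and 3.86, and with no TMM scaling 3.65 and 2.31. The share of thinned cells with an Lgals1 read was 9.6% to 16.4% in the untreated regions, 36.2% ± 13.4 at day 3, 12.4% ± 1.9 at day 14, 76.7% ± 5.1 in demyelination and 43.4% ± 11.2 in remyelination. In the order of levels, demyelination was apart from remyelination and day 3 from day 14, whereas remyelination and day 3 overlapped, and so did day 14 and each pair of neighbours among the untreated regions.

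**Figure D2:**
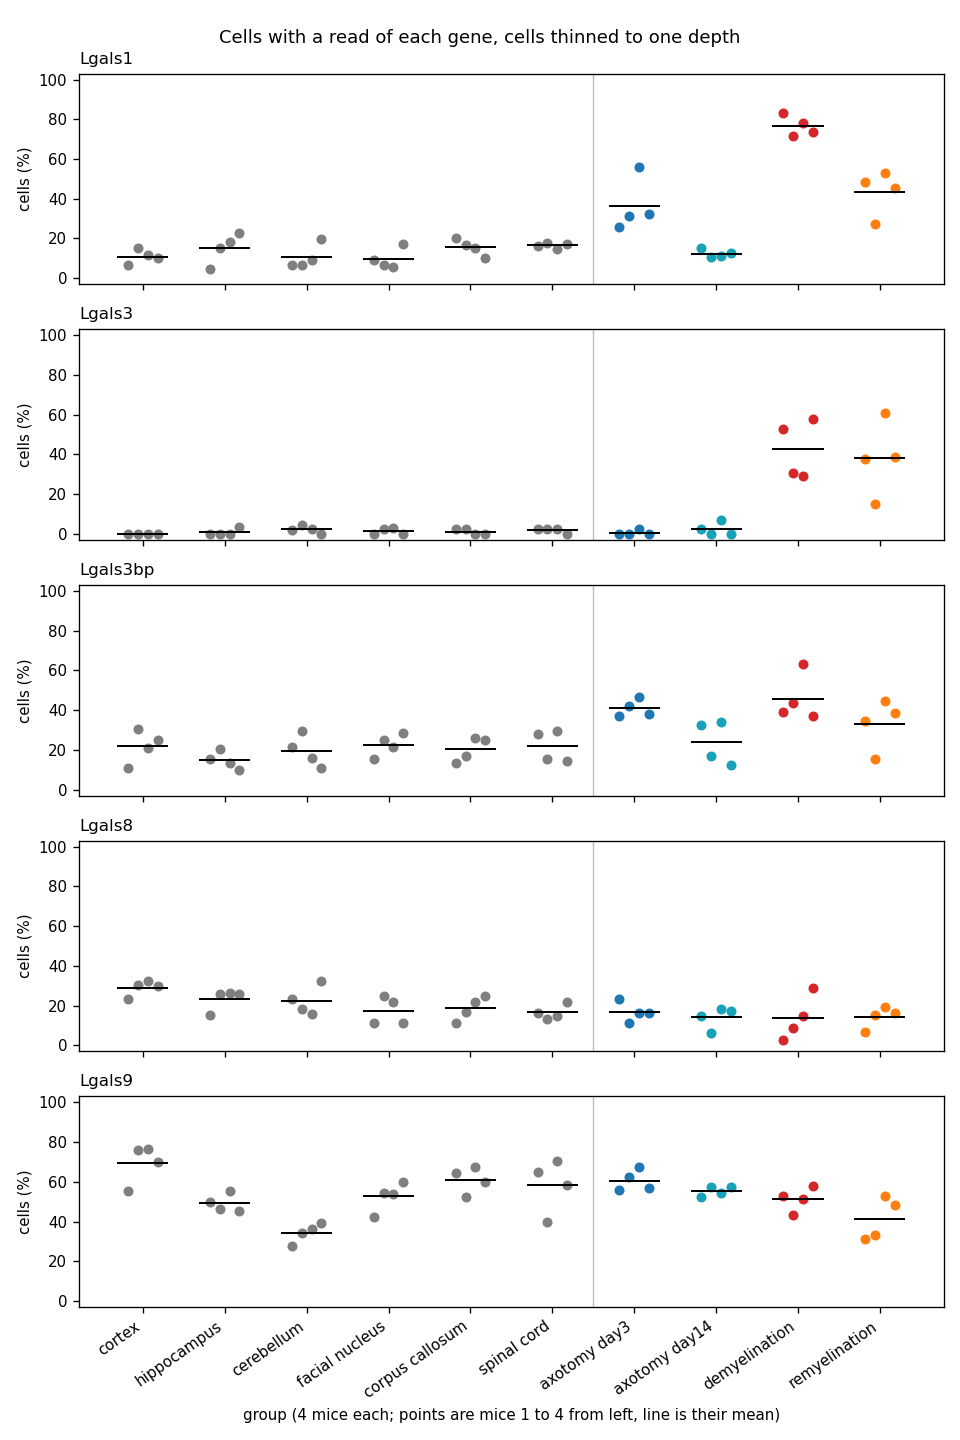
Percent of cells with at least 1 read of each gene after thinning each cell to 20000 reads, 1 point per mouse with the mean as a line. Lgals3 is at 6.8% or lower in every mouse outside the cuprizone groups and Lgals1 is at 71.7% to 83.3% in the demyelination mice.

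Lgals3bp (ENSMUSG00000033880, chromosome 11, 118392751 to 118402092, minus strand) was read in all groups. Its means in the 6 untreated regions ran from 88.3 (hippocampus) to 150 CPM (cerebellum). After axotomy the mice had 339, 353, 324 and 258 CPM at day 3 (318 ± 42.2) against 90.6, 98.6, 76.7 and 162 in facial nucleus (107 ± 38), with no overlap, and a log2 fold change of 1.58 ± 0.57 (SE). At day 14 the mice were spread widely, at 187, 54.6, 522 and 42.8 CPM, and overlapped with facial nucleus and with day 3 (log2 fold change against facial nucleus 0.92 ± 0.56). That value was -0.16 without day 14 mouse 3 and -0.02 with equal weight for each cell, so no direction is given.

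In demyelination the Lgals3bp levels were 471, 836, 776 and 346 CPM (607 ± 236) and in remyelination 1154, 198, 492 and 422 CPM (566 ± 411), against 41.5, 86.6, 165 and 115 CPM in untreated corpus callosum (102 ± 51.6). With TMM scaling both stages lay above untreated without overlap, and they overlapped with each other. On library totals alone remyelination mouse 2 lay below the highest untreated mouse, so the separation of remyelination depends on the scaling. The share of thinned cells with a read in that mouse, 15.2%, was within the 13.3% to 26.1% of the untreated corpus callosum mice. The log2 fold changes were 2.55 ± 0.52 and 2.49 ± 0.52, and -0.05 ± 0.49 between the stages. With no TMM scaling the values against corpus callosum were 1.90 and 1.77, with equal weight for each cell 1.93 and 1.51, and without remyelination mouse 1 the remyelination value was 1.85. The value between the stages ran from -0.72 to 0.22 as single mice were left out. A read was found in 14.6% to 22.7% of thinned cells of untreated regions, 40.9% ± 4.3 at day 3, 24% ± 10.9 at day 14, 45.7% ± 12.2 in demyelination and 33.2% ± 12.7 in remyelination.

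Lgals9 (ENSMUSG00000001123, chromosome 11, 78962974 to 78984946, minus strand), whose product is a ligand of the checkpoint receptor Havcr2, had the highest level per kilobase of transcript of the 5 in each untreated region. Its regional means were 603 ± 71.5 CPM in cortex, 539 ± 160 in hippocampus, 508 ± 69.0 in corpus callosum, 424 ± 81.2 in facial nucleus, 376 ± 56.8 in spinal cord and 238 ± 43.8 in cerebellum. The cerebellum mice, at 218, 186, 270 and 279 CPM, all lay below the spinal cord mice, which ran from 294 to 420, and every other pair of neighbours in that order overlapped. A read was found in 69.5% ± 10.0 of thinned cortex cells and 34.3% ± 4.9 of cerebellum cells, the ends of the range over the 10 groups.

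After axotomy Lgals9 was at 758, 686, 595 and 802 CPM at day 3 (710 ± 90.4), above facial nucleus at 330, 384, 494 and 490 without overlap, with a log2 fold change of 0.75 ± 0.25 (SE). That value was 0.55 with no TMM scaling and 0.44 with equal weight for each cell. Shares of thinned cells with a read overlapped, at 55.8% to 67.4% at day 3 and 42.2% to 60% in facial nucleus. At day 14 Lgals9 was at 509 ± 173 CPM and overlapped in level with both of these groups. In demyelination (644 ± 139) and remyelination (761 ± 267) it overlapped with untreated corpus callosum, with log2 fold changes of 0.31 ± 0.26 and 0.57 ± 0.26. With no TMM scaling these were -0.33 and -0.11, and with equal weight for each cell -0.24 and -0.04, so no direction is given for Lgals9 in the cuprizone groups.

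Lgals8 (ENSMUSG00000057554, chromosome 13, 12439415 to 12464944, minus strand), whose product recognises damaged endosomes and lysosomes, overlapped between neighbouring groups throughout its order of levels. Its means ran from 68.7 ± 41.4 CPM in facial nucleus to 161 ± 18.9 in corpus callosum. The demyelination mice were the most spread, at 2.85, 26.0, 62.0 and 300 CPM, while the remyelination mice had 154, 113, 151 and 150. The log2 fold change against corpus callosum was -0.74 ± 0.82 (SE) in demyelination and -0.18 ± 0.81 in remyelination, and against facial nucleus 0.32 ± 0.68 at day 3 and 0.69 ± 0.68 at day 14. Leaving out demyelination mouse 4 moved the demyelination value to -2.40 ± 0.74, and equal weight for each cell moved it to -2.33. The demyelination value stayed below 0 as single mice were left out (-2.40 to -0.31). It was smaller than its SE with all mice, and mouse 4 lay above every corpus callosum mouse. The day 3 value was -0.04 without facial nucleus mouse 4 and the day 14 value -0.42 without day 14 mouse 3. A stricter cell filter turned the day 14 and remyelination values. No direction is given for Lgals8 in these comparisons. A read was found in 13.8% to 29.1% of thinned cells.

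Levels can be compared between genes only per length of transcript. Per kilobase of counted exon length (0.8 for Lgals1, 1.858 for Lgals3, 2.847 for Lgals3bp, 3.688 for Lgals8 and 2.137 for Lgals9), Lgals9 was the highest of the 5 in untreated corpus callosum at 238 CPM per kilobase, against 59.5 for Lgals1, 43.6 for Lgals8, 35.8 for Lgals3bp and 0.481 for Lgals3. In demyelination the order was Lgals1 at 1139, Lgals3 at 407, Lgals9 at 301, Lgals3bp at 213 and Lgals8 at 26.5 CPM per kilobase. In remyelination it was Lgals3 at 569, Lgals1 at 461 and Lgals9 at 356.

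**Figure D3:**
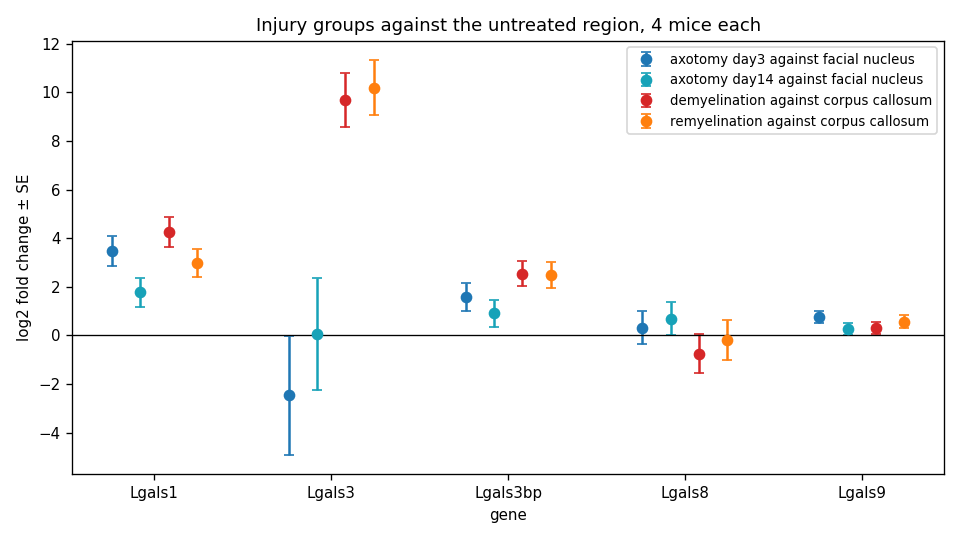
Log2 fold change with its SE (edgeR) for the 5 genes in axotomy against facial nucleus (2 times) and cuprizone against corpus callosum (2 stages), 4 mice in each group. Lgals3 is near 10 in both cuprizone stages, and its axotomy values rest on 11 reads at day 3, 59 at day 14 and 69 in facial nucleus.

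The counts of members past the threshold are given with the share of all tested genes past it, and since the members were chosen with these contrasts known, nothing is read from them. The threshold was a Benjamini-Hochberg adjusted p under 0.05 in edgeR's quasi-likelihood test, and all 5 members passed the filter on low counts in every fit. Lgals3 passed it in the cuprizone fit only through the cuprizone mice, since corpus callosum had 35 Lgals3 reads in 4 cells. The size of its log2 fold changes against corpus callosum rests on those few reads. Among the 6 untreated regions 1 member passed, Lgals9, against 0.1% of 22907 genes, and it did not pass when any of the 4 replicate numbers was left out. At day 3 against facial nucleus 1 member passed, Lgals1, against 0.145% of 19319 genes. That call was lost without day 3 mouse 2 or 3 or without facial nucleus mouse 1, 2 or 3, over which the log2 fold change was 3.16 to 3.49.

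At day 14 against facial nucleus no member passed and 0% of genes did (edgeR called 0 of 19319, with 1090 at an unadjusted p under 0.05 and 184 called by DESeq2). For day 14 against day 3 no member passed, against 0.0259% of genes. In demyelination against corpus callosum 3 members passed, Lgals1, Lgals3 and Lgals3bp, against 5.16% of 14057 genes (433 up and 292 down), and in remyelination Lgals1, Lgals3 and Lgals3bp passed, against 3.12% (353 up and 85 down). Both comparisons share the untreated mice, and no support is drawn from these calls, since the members were chosen with the same counts known. For remyelination against demyelination no member passed, against 0.0427% of genes.

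The effect of demyelination was set against that of axotomy day 3 in a contrast of the 2 log2 fold changes, in which no member passed, against 0.423% of 26684 genes. The difference was 12.24 ± 3.12 (SE) for Lgals3, 0.80 ± 0.91 for Lgals1, 1.00 ± 0.73 for Lgals3bp, -1.03 ± 0.98 for Lgals8 and -0.40 ± 0.36 for Lgals9, where the median over all tested genes was -1.44. The Lgals3 value contains the day 3 fold, which rests on 11 and 69 reads, so its size is not read, and with equal weight for each cell it was 8.25. As each replicate number was left out, Lgals1 ran from 0.10 to 2.28 (without replicate 4 and 3) and Lgals8 from -2.55 to -0.29 (without replicate 4 and 1). Lgals3 did pass with DESeq2, with equal weight for each cell and with only the 4 groups of the contrast fitted.

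The mean over mice of the number of members read per cell was highest in demyelination, and remyelination mouse 3 lay within the range of the demyelination mice. The mean number of the 5 members read per thinned cell was 0.89 to 1.31 in the untreated regions, 1.55 ± 0.22 (SD, n = 4) at day 3, 1.08 ± 0.15 at day 14, 2.30 ± 0.24 in demyelination and 1.71 ± 0.52 in remyelination. At least 3 members were read in 44.7% of demyelination cells, 25.6% of remyelination cells and 21.4% of day 3 cells, against 10.2% in cortex and 4.1% to 6.5% in the other 6 groups. All 5 were read together in 1 demyelination cell and 3 remyelination cells.

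In demyelination the homeostatic microglia genes P2ry12, which encodes a purine receptor, and Tmem119 were read in a smaller share of cells with an Lgals3 read than of cells without. P2ry12 was read in 50.7% of the 67 cells with Lgals3 and in 75.5% of the 94 without, and Tmem119 in 29.9% and 55.3%. The shares were lower in cells with Lgals3 in 4 of 4 mice for both genes. Median detected genes after thinning were 1320 and 1334. Reads of P2ry12 were also found in 16 of the 20 wells labelled negative and reads of Tmem119 in 13, and the part of such stray reads in these shares was not tested. Trem2 was read in 94.0% and 92.6%, and the apolipoprotein gene Apoe in all cells of both kinds.

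Mki67, a marker of dividing cells, was read in 1.5% of demyelination cells with Lgals3 and 10.6% of those without, lower in 4 of 4 mice. This rests on few cells. In mice 1 to 3 it was read in 0% of the 19, 14 and 12 cells with Lgals3. In mouse 4 the shares were 4.5% of 22 cells with Lgals3 and 6.25% of 16 without. Lgals1 was read in 83.6% of demyelination cells with Lgals3 and 71.3% of those without, higher in 4 of 4 mice. Lgals3bp, whose product is named for binding that of Lgals3, was read in 44.8% of cells with Lgals3 and 46.8% of those without. These are descriptions of reads in sorted cells, and the cells of a mouse are not replicates.

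In remyelination P2ry12 was read in 38% of the 50 cells with Lgals3 and 59.5% of the 79 without, and Tmem119 in 20.0% and 36.7%, each lower in 3 of 4 mice. Mouse 2, with 5 Lgals3 cells, went the other way. Lgals1 was read in 60% and 32.9%, higher in 3 of 4 mice. Here median detected genes differed, at 1106.5 with Lgals3 and 717 without, and the part of that in the shares was not tested. Remyelination cells with an Lgals1 read had Tmem119 in 16.1% against 41.1% of those without, lower in 4 of 4 mice, and P2ry12 in 41.1% against 58.9%, lower in 3 of 4 (mouse 1 had 57.1% against 46.7%).

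At day 3 after axotomy Mki67 was read in a larger share of cells with an Lgals1 read than of cells without. Of the 61 day 3 cells with an Lgals1 read 26.2% had an Mki67 read, against 4.7% of the 107 without. By mouse the shares were 27.3% against 3.1%, 35.7% against 6.5%, 25% against 0% and 16.7% against 8.0%, higher in 4 of 4 mice. Lgals9 was read in 82.0% and 48.6% (4 of 4 mice) and Lgals3bp in 54.1% and 33.6% (3 of 4). P2ry12 was read in 98.4% and 97.2%, and Tmem119 in 96.7% and 95.3%. Cells with Lgals1 had a median of 2218 detected genes after thinning against 1960, and the part of that in these shares was not tested.

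In demyelination Mki67 was read in 7.3% of the 123 cells with Lgals1 and 5.3% of the 38 without, higher in 2 of 4 mice. Tmem119 was read in 46.3% and 39.5%, higher in 2 of 4 mice, and P2ry12 in 66.7% and 60.5%, higher in 3 of 4. The 123 cells had Fn1 in 53.7% against 23.7%, higher in 4 of 4 mice, at 1401 and 1009 median detected genes.

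**Figure D4:**
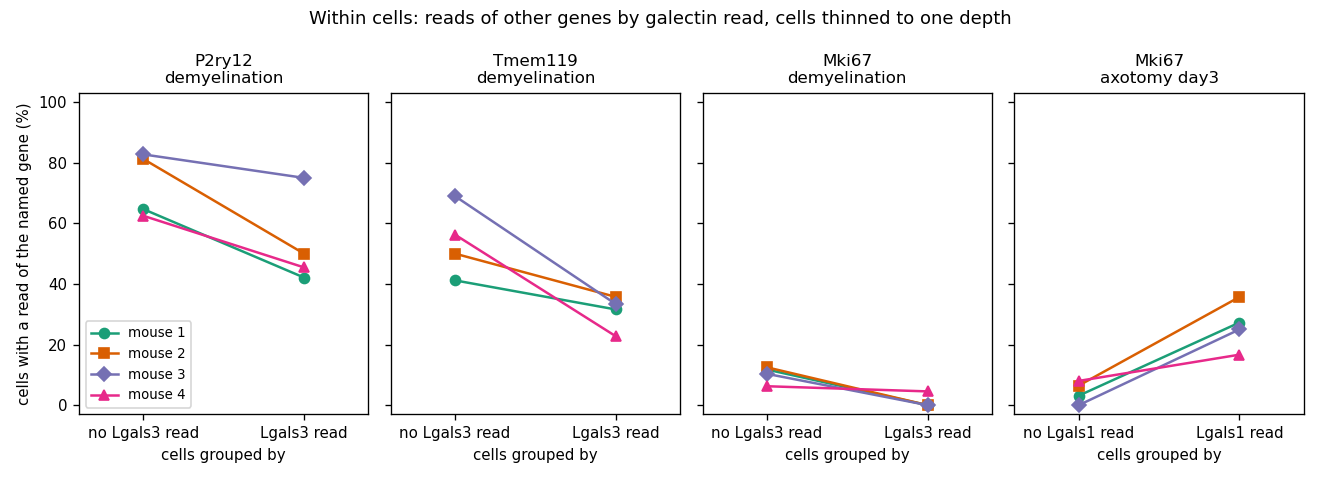
Percent of thinned cells with a read of the gene named above each panel, in cells without and with a galectin read, 1 line per mouse. In demyelination P2ry12 and Tmem119 are lower in cells with Lgals3 than in cells without in all 4 mice, and at axotomy day 3 Mki67 is higher in cells with Lgals1 in all 4.

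Markers of other cell types moved with these groups, and their part in the galectin levels was not tested. The sum of the 8 monocyte markers was 1226 CPM in demyelination (563 to 2118 over mice), 138 in remyelination (0.8 to 322) and 82.2 in corpus callosum (14.3 to 170). Fn1 alone made 1215 CPM of the demyelination sum, Ly6c2 and Chil3 were at 0 there, and Ly6c2 was also at 0 in remyelination. The 7 border macrophage markers summed to 278 CPM in remyelination (186 to 392), 39.7 in demyelination (13 to 90.9) and 7.92 in corpus callosum (4.5 to 15.2), with Ms4a7 making 221 and Mrc1 41.7 CPM of the remyelination sum, Pf4 23.9 of the demyelination sum, Lyve1 at 0 in both cuprizone groups, Cd163 at 0 in remyelination and F13a1 at 0 in demyelination. Oligodendrocyte markers (6) summed to 195 CPM in corpus callosum (96 to 394), 342 in demyelination (163 to 664) and 748 in remyelination (107 to 1726), and endothelial markers (4) to 32.7 (16 to 60.6), 156 (85.1 to 225) and 228 (27.8 to 380). Astrocyte markers (5) summed to 35.5 (10.3 to 48.5), 105 (32.5 to 186) and 107 CPM (6.85 to 211). Neuron markers (4) summed to 131 CPM at day 3 (40.9 to 371) and 22.8 in facial nucleus (0.20 to 41.2), and neutrophil, B cell and T and NK cell lists each summed to 58.2 CPM or less in the groups of these comparisons. Ms4a7, Mbp of myelin and Flt1 of endothelium rose in remyelination, at log2 fold changes of 8.94 ± 1.82, 2.53 ± 0.67 and 3.53 ± 0.91 (adjusted p = 0.00972, 0.0499 and 0.0452, edgeR). Each was the only gene of its list called there, of 4, 5 and 2 tested, where 3.12% of all genes were called. The list medians were 3.76, 1.05 and 0.24 log2, and Mog and Ly6a were at 0 in remyelination. The Ms4a7 fold starts from a list sum of 7.92 CPM in corpus callosum. In thinned cells of both cuprizone groups Ly6c2 was read in none, and the mannose receptor gene Mrc1 in 0% of demyelination or remyelination cells with an Lgals3 read. These are single markers of their lists. Fn1 made most of the demyelination monocyte sum and Ms4a7 most of the remyelination border macrophage sum. Their shares in cells with Lgals3 are not given here, so nothing is read from Ly6c2 and Mrc1 about the kind of these cells.

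The genes whose logged level over the 40 sums was most like that of a member were, for Lgals3, the scavenger receptor gene Msr1 (Pearson 0.92, Spearman 0.71), Rab7b (0.90, 0.72) and Apoc1 (0.88, 0.64). For Lgals1 they were Rpl32, Cfl1 and Eef1a1 (Pearson 0.89 each), for Lgals3bp Atp5j (0.83), Gpx3 (0.80) and Ybx1 (0.80), for Lgals9 CT010467.1 (0.73), Rps4x (0.72) and Arpc5 (0.71), and for Lgals8 4833421G17Rik (0.64), Pip5k1c (0.61) and Epc1 (0.61). CT010467.1 is a ribosomal RNA gene with near-identical copies, so its counts are uncertain. These are descriptions over sums that share plates, groups and depth, among 9359 genes with a mean of at least 10 CPM. Among the members the highest pairs were Lgals1 with Lgals3bp (0.67), Lgals3 with Lgals3bp (0.67) and Lgals1 with Lgals3 (0.65, Spearman 0.36).

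The gene lists that follow were chosen with earlier results of these data known. Their counts and medians beside those of all genes are therefore a description, and nothing is read from them about the lists. Galectins act through the glycoproteins that they bind, and 24 genes of such counter-receptors and partners were listed. In demyelination 6 of the 22 tested rose and none fell (edgeR, adjusted over all genes), where 5.16% of all genes were called, with a list median log2 fold change of 0.56 against -0.33 over all genes. Fn1, which encodes the matrix protein fibronectin and is also on the monocyte list, had a log2 fold change of 7.77 ± 1.32 (SE, adjusted p = 0.00237), and went from 5.45 ± 4.94 CPM in corpus callosum to 1215 ± 657. The neuropilin gene Nrp1, whose product binds that of Lgals1, rose by 2.69 ± 0.38 (adjusted p = 0.000372), from 36.5 ± 3.65 to 240 ± 89.0 CPM. The heavily glycosylated lysosomal membrane protein genes Lamp1 and Lamp2 rose by 1.55 ± 0.23 (adjusted p = 0.000598) and 1.34 ± 0.30 (adjusted p = 0.0176). Without TMM scaling 5 of the list passed, and Lamp2 (log2 fold change 0.71), Bsg and Trem2 were not among them. Bsg and Trem2, at 1.22 ± 0.25 and 1.05 ± 0.22, were the other 2 that rose, named after their values were seen.

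In remyelination 5 of the 22 partners rose and 1 fell, where 3.12% of all genes were called, with a list median of 0.71 against -0.31 over all genes. Nrp1 rose by 3.02 ± 0.39 (adjusted p = 0.000148), to 296 ± 65.3 CPM. Fn1 (4.37 ± 1.13, adjusted p = 0.0488), Lamp1 (1.25 ± 0.23, 0.00423) and the receptor gene Trem2 (0.99 ± 0.22, 0.0187) also passed as higher, as did Slc3a2 (0.98 ± 0.26, 0.0488), named after its value was seen. Mertk, a phagocytic receptor gene, passed as lower (-1.38 ± 0.35, 0.0442). Nrp1 passed under all 17 other settings run in both stages, and so did Fn1 and Lamp1 in demyelination. In remyelination Fn1 failed in 12 of them, Mertk in 10, Slc3a2 in 15, Trem2 in 7 and Lamp1 in 1, and the number of partners called ran from 2 to 7.

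**Figure D5:**
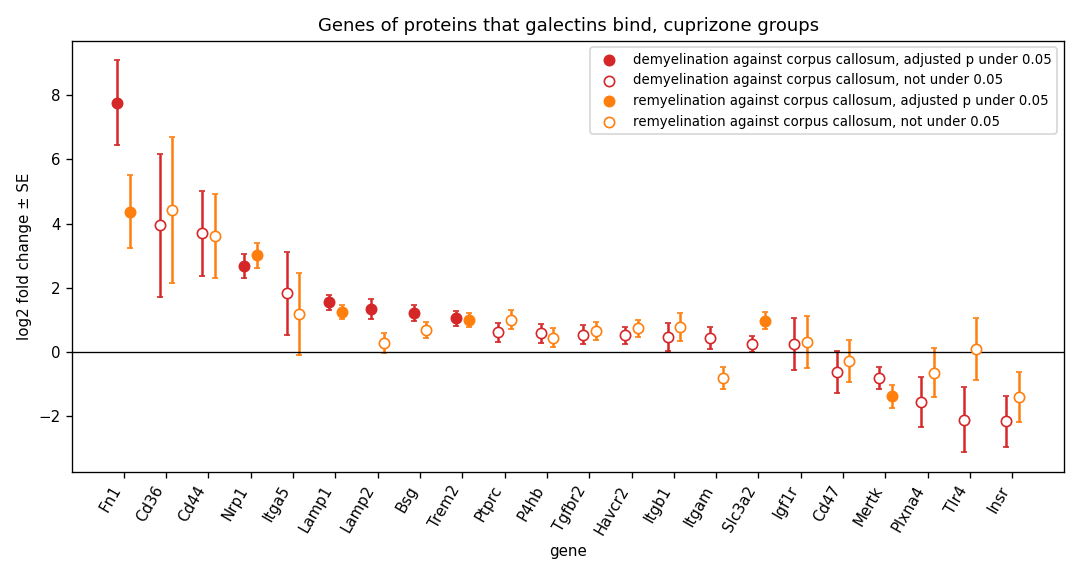
Log2 fold change with its SE for the 22 tested genes of proteins that galectins bind, in demyelination and remyelination against untreated corpus callosum, filled where the adjusted p was under 0.05. Fn1 and Nrp1 are filled in both stages, and Mertk is filled as lower in remyelination.

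Of the 18 enzymes and transporters that shape the sugars galectins read, 1 of 16 tested fell in each cuprizone stage and none rose, a share near the 5.16% and 3.12% of all genes called. That gene was Gcnt1, which builds the branch of O-linked sugars on which Lgals1 ligands can sit, at -1.38 ± 0.29 (adjusted p = 0.0119) in demyelination and -1.12 ± 0.29 (adjusted p = 0.0474) in remyelination. It went from 393 ± 67.6 CPM in corpus callosum to 155 ± 24.1 and 182 ± 35.6, and failed in 5 and 11 of the 17 other settings. The list medians were -0.05 and 0.41, against -0.33 and -0.31 over all genes. Of the 16 genes of the response to damaged lysosomes, in which Lgals3 and Lgals8 products take part, none of the 14 tested passed in either stage, with list medians of 0.99 and 0.76 log2, where up to 2 and 4 passed under other settings.

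None of these 3 lists had a gene past the threshold among the untreated regions, at day 3, at day 14, between the days, between the cuprizone stages or in the contrast of effects. At day 3 the list medians were 0.45 for partners, -0.06 for glycan enzymes and 0.54 for the lysosome list, against 0.04 over all genes. Of the 7 other galectin genes listed, Lgals6 had no row under that name, 4 could be tested among the regions and in the contrast of effects and 2 in the axotomy and cuprizone fits, and none passed. Under other settings 1 passed in 5 of 17 in demyelination. Lgals4, the most read of them, was at 17.2 ± 23.4 CPM in corpus callosum, 0 reads in demyelination and 2.73 ± 4.74 CPM in remyelination.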

How the data were processed

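Single sorted microglia were sequenced with Smart-seq2, a method without molecular tags or strand information, so reads of overlapping or antisense genes are not separable. The authors' deposited values are whole-number read counts per gene, from STAR 2.5.2b and featureCounts 1.5.1 on GRCm38, per the submitters' processing notes. The release of the annotation and the sort gates were not given in the sources used here. Names come from GENCODE vM21 (48349 of 48709 entries named). Spike-in entries (92) stayed out of library sizes.

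Wells needed 20000 gene counts, 500 detected genes, under 25% mitochondrial and under 50% spike-in counts, which left 0 of 20 negative wells. No doublet caller was run. Since cells are not replicates, counts were summed per mouse. Sums were tested with edgeR 4.0.16 in R 4.3.3 (TMM, minimum count 10, minimum total count 15, robust quasi-likelihood F test, Benjamini-Hochberg at 0.05): the 6 regions together, the axotomy groups with facial nucleus, the cuprizone groups with corpus callosum, and all 10 groups for the contrast of effects. The SE is the absolute log2 fold change over the root of F. No 2 sums of a group were identical (60 pairs, chi-square per degree of freedom at least 67.1). Scripts were tested on simulated data. The p-values set a difference between groups against the spread between these mouse sums. For injured against untreated groups that difference also contains plate, and the sums of untreated regions may share mice.

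Shares of cells count wells with at least 1 read after each cell was thinned to 20000 reads. The members and gene lists were chosen with earlier results of these data known. Named genes were the members, up to 4 called genes per list and direction with the largest fold change, and the 3 genes most like each member, by Pearson correlation. Alternatives were DESeq2 1.42.0, other scalings and filters, equal weight for each cell (limma 3.58.1 on log2 of the mean CPM + 1), other sets of fitted groups, a replicate block and leaving out mice. Library size only, and all settings for the gene lists, were chosen after seeing the data. Some marker genes are not reported here by name.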

Additional observations from a re-analysis of the deposited data

Results flagged for a closer look

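Of 50 groups of 4 mice (5 genes in 10 groups), 5 had a mouse whose gap to the nearest other mouse, over the group's range, was above Dixon's 95% critical value, and for values without ties chance alone flags about 1 group in 20. Where the other 3 mice are at 0, as in 2 of the 5, any value above 0 is flagged. For Lgals3 these were hippocampus mouse 4 at 3.62 CPM with the other 3 at 0, axotomy day 3 mouse 3 at 1.16 CPM with the other 3 at 0, and spinal cord mouse 1 at 148 CPM with the others at 0 to 21. Each of the first pair is 1 cell, with 34 and 11 reads, and in spinal cord 1 cell of mouse 1 carried 84.8% of the group's Lgals3 reads. For Lgals8, remyelination mouse 2 was at 113 CPM with the others at 150 to 154. For Lgals9, cortex mouse 3 was at 709 CPM with the others at 555 to 577.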

How the results depend on the processing

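The number of members past the threshold was the same under every setting run for day 14 against facial nucleus, day 14 against day 3, demyelination against corpus callosum and remyelination against demyelination (0, 0, 3 and 0), and in remyelination against corpus callosum it was 3 throughout except 2 with library size only (without Lgals3bp, log2 fold change 1.77). For the regions it was 1, and 0 with library size only, 0 with all 10 groups fitted and 0 to 0 when each replicate number was left out. At day 3 it was 1, and 0 to 1 when a mouse was left out, with the call of Lgals1 lost in 5 fits. In the contrast of effects it was 0, and 1 with DESeq2, 1 with equal weight for each cell and 1 with only the 4 groups fitted, each Lgals3, and 0 to 0 when each replicate number was left out. No called member changed direction. The cause of these changes was not tested.

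A replicate block, which fits the replicate number as a term, gave 1 member for the regions, 1 at day 3, 3 in demyelination, 3 in remyelination and 0 in the other comparisons, and moved the genes called from 23 to 39 in the regions and from 725 to 447 in demyelination. Same-numbered sums deviated together little or not at all (correlations of -0.0336 to 0.0180 for axotomy, -0.0080 to 0.0237 for cuprizone and -0.0007 to 0.0809 for the regions). The range for the regions lay almost wholly above 0, and the design text says that untreated regions came from the same mice. Whether equal numbers mark the same mouse is not known. The main fits did not pair them, and the test of the regions treats their sums as independent. Over all genes edgeR and DESeq2 called 23 and 204 in the regions, 28 and 351 at day 3, 5 and 233 for day 14 against day 3, 725 and 1938 in demyelination, 438 and 1586 in remyelination, 6 and 572 between the stages and 113 and 3263 in the contrast of effects. At day 14 against facial nucleus they called 0 and 184. Equal weight for each cell called 46 in the regions, 9 at day 14, 19 for day 14 against day 3, 2193 in demyelination and 2201 in remyelination, and more than the edgeR count in the contrast of effects. All 10 groups fitted called 4 at day 14, 23 for day 14 against day 3, 1184 in demyelination, 747 in remyelination and 101 between the stages, and only the 4 groups fitted called 197 in the contrast of effects. No filter on low counts called 57 in the regions, 92 at day 3, 16 at day 14, 83 for day 14 against day 3 and 114 between the stages, and library size only called 326 in the contrast of effects and 2 for day 14 against day 3. Low counts limit Lgals3 outside the cuprizone groups, where it had 0 to 1726 reads per group.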
